A study of Homo sapiens with 15 samples.

Results

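The genes described here are 8 transporters and channels that move ions and bicarbonate across the membranes of an intestinal epithelial cell. They are the sodium pump subunit ATP1B1, the sodium-proton exchangers SLC9A2 and SLC9A3, the sodium-coupled bicarbonate carriers SLC4A7 and SLC4A8, the chloride-bicarbonate exchanger SLC26A3, the sodium-potassium-chloride cotransporter SLC12A2 and the chloride channel CFTR. They are a fixed list, chosen with earlier results of these data known, and were matched by gene symbol to the 69215 genes of the deposited tables. Each symbol matched 1 gene, and all 8 were among the 12769 genes with enough counts to test.

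RNA was sequenced from monolayers of Caco-2, a line established from a human colon cancer whose cells polarize and take on features of enterocytes. The 3 groups were unexposed control cells, cells exposed to polysorbate 20 (PS20) and cells exposed to polysorbate 80 (PS80), each with 5 libraries. Both emulsifiers were given at 0.05% for 24 h, and no other agent or genetic change was named in the labels. PS20 and PS80 are nonionic surfactants used in food, polyoxyethylene sorbitan esters that carry mainly laurate in PS20 and oleate in PS80, and the series concerns their effect on the gut epithelial barrier. All libraries came from 1 cancer cell line, and nothing in the labels says whether the replicates were separate cultures, so p-values measure the spread between these libraries, which may be technical.

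In absorptive and secretory epithelia, the basolateral sodium pump exports sodium and so drives the other carriers. Apical sodium-proton exchange coupled to chloride-bicarbonate exchange takes up salt, which water follows. Secretion runs the other way: SLC12A2 loads chloride at the basolateral side and CFTR lets it out at the apical side, while sodium-coupled bicarbonate carriers bring in base that controls cell pH or is secreted.

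With PS20, 6 of the 8 genes passed the test against control. SLC9A2, SLC9A3 and SLC4A7 were higher, ATP1B1, SLC4A8 and SLC12A2 were lower, and SLC26A3 and CFTR did not pass. Over all genes tested, 48.2% passed in that comparison (24.3% higher, 23.9% lower). With PS80, 5 of the 8 passed: SLC9A3 and SLC4A7 higher, ATP1B1, SLC4A8 and SLC12A2 lower. The background was 33.2% (17.2% higher, 16.0% lower). Between the emulsifiers 3 of 8 passed, with ATP1B1 and SLC4A8 higher and SLC9A2 lower with PS80 than with PS20, against 35.2% of all genes (18.0% higher, 17.2% lower). The share of members was thus near the background between the emulsifiers. Passing means an adjusted p under 0.05 from the quasi-likelihood test of edgeR, adjusted by Benjamini-Hochberg over all 12769 genes. The comparisons with control share their 5 control libraries, so the values for each emulsifier are given side by side and not as independent evidence of each other.

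The median log2 fold change of the 8 genes was 0.12 with PS20, against 0.01 over all genes tested. With PS80 it was -0.03, against 0.00, and between the emulsifiers 0.06, against 0.00. Members moved in both directions, and the set had no common direction. The libraries of the 2 groups did not overlap for 5 of 8 members with PS20, where 32.5% of all genes did not overlap. The same held for 4 of 8 with PS80 (19.6% of all genes) and for 2 of 8 between the emulsifiers (22.7% of all genes).

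**Figure D1:**
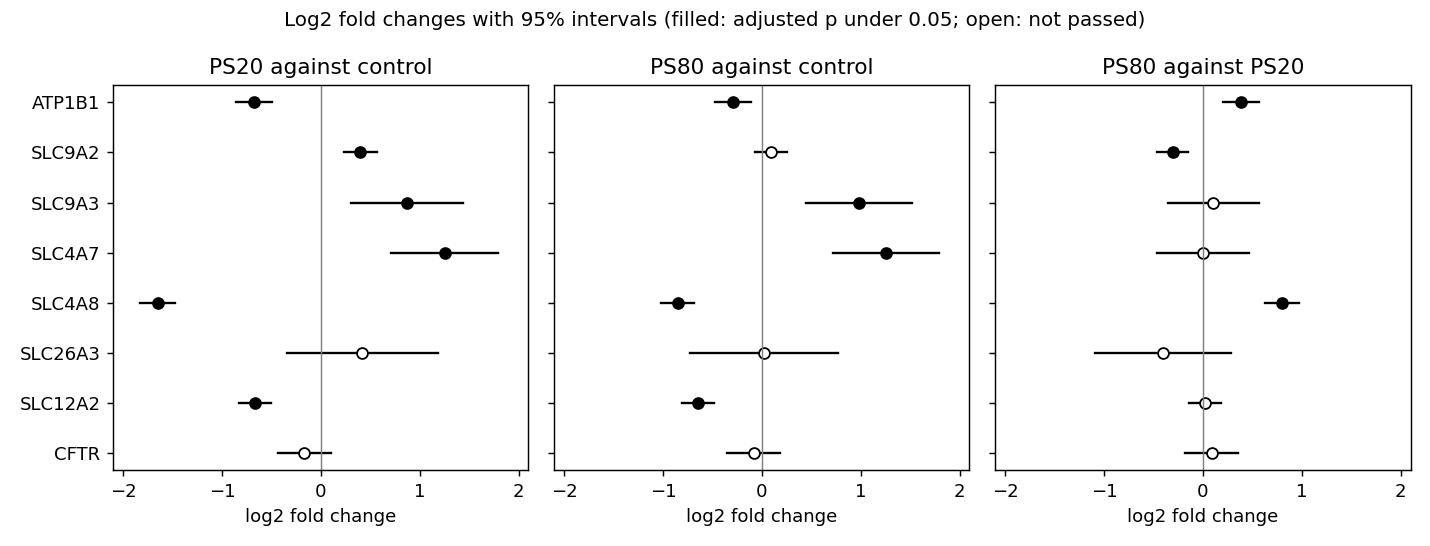
Log2 fold change (horizontal axis) of each of the 8 genes in the 3 comparisons, with bars for the 95% interval. Filled points passed the adjusted p of 0.05 and open points did not. SLC4A8 lies farthest below 0 with PS20 (-1.65), SLC4A7 lies at 1.25 with either emulsifier, and CFTR and SLC26A3 are open in every panel.

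The control libraries held 4183096 to 13616301 counts, the PS20 libraries 6749086 to 17251564 and the PS80 libraries 6769409 to 42271053. Markers of intestinal epithelium summed to 2057 to 2218 CPM, counts scaled to library size, in every library, led by EPCAM and VIL1, while KRT20 was at 0. CDX2 rose with both emulsifiers, ALPI and FABP1 rose with PS20, and VIL1 fell with PS20. Defining markers of other cells were at or near 0 (MUC2 and SPDEF of goblet cells, CHGA and NEUROD1 of enteroendocrine cells, DCN and COL1A2 of fibroblasts, PTPRC of blood). Other genes of these lists were expressed, and some moved with exposure. The 3 goblet genes summed to 16.0 to 42.01 CPM, nearly all TFF3, which did not pass. The 3 enteroendocrine genes summed to 0.429 to 3.95 CPM, all CHGB, which rose with PS20 (1.06 ± 0.27, adjusted p = 0.0018). The 3 blood genes summed to 12.4 to 22.3 CPM, mostly CD14, which rose with PS20 (0.49 ± 0.12, adjusted p = 0.00151) and PS80 (0.40 ± 0.12, adjusted p = 0.00905). PECAM1 of endothelium rose with PS80 (0.56 ± 0.16, adjusted p = 0.00758). The sum of the 4 fibroblast genes was 140 to 156 CPM in the controls, 116 to 140 CPM under PS20 and 124 to 178 CPM under PS80. Of them COL1A1 did not pass, and PDGFRA fell from 51.3 ± 3.37 CPM (SD, n = 5) to 24.7 ± 2.65 with PS20 (-1.05 ± 0.08, adjusted p = 3.69e-10) and 40.2 ± 4.14 with PS80 (-0.36 ± 0.08, adjusted p = 0.00105). PDGFRA was thus ordered as SLC4A8 and ATP1B1 were, lowest with PS20, and the part of other cell types in the members' changes was not tested. In bulk RNA, fewer cells that express a gene and less of its RNA per cell cannot be told apart. Replicates 1 and 2 stood apart from replicates 3 to 5 for several of the 8 genes, so values are also given within each of these sets where they differ. The labels name no batch. PS80 replicates 1, 3, 4 and 5 were counted with another featureCounts version than the other 11 libraries. In those 4 libraries the counting version and the exposure cannot be told apart, and the values for PS80 replicate 2 alone are given where a call is lost.

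Of the 8 genes, 4 passed with both emulsifiers and have a RefSeq start site whose first transcribed bases lie in an annotated transcript of the gene: ATP1B1, SLC4A7, SLC4A8 and SLC12A2. Their promoters are shown because SLC4A7 moved opposite to the other 3. Each line gives the 250 bases before the RefSeq start (build GRCh38.p14), 5′ to 3′ on the gene's strand. Capitals mark GC boxes (GGGCGG, or CCGCCC on the other strand) and CCAAT boxes (CCAAT, or ATTGG on the other strand), and no occurrences of one overlap the other.
ATP1B1, chr1:169106440-169106689, plus strand: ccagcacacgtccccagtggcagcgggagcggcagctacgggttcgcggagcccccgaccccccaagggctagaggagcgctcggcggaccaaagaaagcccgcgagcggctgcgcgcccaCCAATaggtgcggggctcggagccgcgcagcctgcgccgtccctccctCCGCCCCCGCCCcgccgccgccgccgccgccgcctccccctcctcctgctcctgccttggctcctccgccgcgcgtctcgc
SLC12A2, chr5:128083516-128083765, plus strand: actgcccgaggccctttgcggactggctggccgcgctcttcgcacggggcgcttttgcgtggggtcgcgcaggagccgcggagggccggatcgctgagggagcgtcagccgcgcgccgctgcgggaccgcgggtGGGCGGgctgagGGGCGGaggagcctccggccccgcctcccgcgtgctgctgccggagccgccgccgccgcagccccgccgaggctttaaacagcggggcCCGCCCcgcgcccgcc
SLC4A8, chr12:51424581-51424830, plus strand: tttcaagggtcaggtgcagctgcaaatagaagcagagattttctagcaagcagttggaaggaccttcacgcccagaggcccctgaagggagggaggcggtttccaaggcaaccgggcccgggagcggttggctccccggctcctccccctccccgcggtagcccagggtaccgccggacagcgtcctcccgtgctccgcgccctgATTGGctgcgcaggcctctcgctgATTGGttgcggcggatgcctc
SLC4A7, chr3:27484385-27484634, minus strand: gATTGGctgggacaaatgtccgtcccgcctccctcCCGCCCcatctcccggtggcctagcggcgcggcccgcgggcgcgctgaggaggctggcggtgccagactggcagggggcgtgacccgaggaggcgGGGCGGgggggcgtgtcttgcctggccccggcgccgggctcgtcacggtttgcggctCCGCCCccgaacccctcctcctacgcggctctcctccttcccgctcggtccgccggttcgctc
The SLC4A8 window held no GC box and 2 CCAAT boxes, 45 and 21 bases before the start. The SLC4A7 window held 3 GC boxes and 1 CCAAT box, the latter 249 bases before the start. SLC12A2 had 3 GC boxes and no CCAAT box, and ATP1B1 had 2 GC boxes and 1 CCAAT box. Of 35116 RefSeq windows of the same length, 42.6% held a GC box and 32% a CCAAT box. TATAAA (10.7% of all windows) and CACGTG (6.34%) were also searched on both strands and were in none of the 4. The windows were 65.6% to 79.6% G or C, against a median of 58% over all windows. These are matches of letters only, and neither box was in all 3 windows of the genes that fell. SLC4A7 and SLC4A8 each have a further RefSeq start, which is not shown.

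ATP1B1 (ENSG00000143153.14, chromosome 1, 169105697 to 169310992, plus strand, GRCh38) encodes the beta-1 subunit of the sodium pump, which the pump needs to reach the plasma membrane. In control, replicates 1 to 5 measured 413, 424, 511, 502 and 526 CPM. With PS20 they measured 262, 258, 308, 323 and 335 CPM, and with PS80 345, 365, 390, 437 and 408 CPM. Every PS20 library lay below every control library and below every PS80 library, while PS80 overlapped control at its upper end. Replicates 1 and 2 were the lowest of each group. The log2 fold change was -0.68 ± 0.09 (SE) with PS20 (adjusted p = 5.68e-06) and -0.29 ± 0.09 with PS80 (adjusted p = 0.0156). PS80 was higher than PS20 by 0.39 ± 0.09 on the log2 scale (adjusted p = 0.0022), an interval of 0.20 to 0.57. The difference from control with PS80 did not pass within replicates 1 and 2 (-0.24, adjusted p = 0.0718) and passed within replicates 3 to 5 (-0.32, adjusted p = 4.38e-07). With PS80 replicate 2 as the only PS80 library, it was -0.38 (adjusted p = 0.0968), and the difference between the emulsifiers was 0.30 (adjusted p = 0.174).

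ATP1B3, another beta subunit of the pump, did not pass against control with either emulsifier and was higher with PS80 than with PS20 (0.27 ± 0.07, adjusted p = 0.00393). FXYD5, a small regulatory subunit of the pump, rose from 10.1 ± 1.2 CPM (SD, n = 5) to 19.3 ± 2.7 with PS20 and 16.1 ± 2.26 with PS80, log2 fold changes of 0.94 ± 0.12 (adjusted p = 6.75e-07) and 0.68 ± 0.12 (adjusted p = 0.000132).

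SLC9A2 (ENSG00000115616.3, chromosome 2, 102619553 to 102711355, plus strand) encodes NHE2, an exchanger of the apical membrane that trades sodium for protons. Control libraries measured 51.0, 45.9, 51.1, 51.1 and 50.4 CPM. PS20 libraries measured 55.3, 60.2, 71.3, 70.0 and 70.6 CPM, and PS80 libraries 49.6, 46.2, 56.6, 56.8 and 57.6 CPM. All PS20 libraries lay above all control libraries, and PS80 overlapped both other groups. In both exposed groups replicates 1 and 2 were the lowest. SLC9A2 was higher with PS20 (0.40 ± 0.08, adjusted p = 0.000197) and did not pass with PS80 (0.09 ± 0.08, adjusted p = 0.394, interval -0.07 to 0.26). PS80 was lower than PS20 (-0.31 ± 0.08, adjusted p = 0.00298). Within replicates 3 to 5 the values were 0.48 with PS20 (adjusted p = 5.32e-08) and 0.16 with PS80 (adjusted p = 0.0467). Within replicates 1 and 2 they were 0.26 (adjusted p = 0.126) and -0.01 (adjusted p = 0.955), and the difference between the emulsifiers there was -0.27 (adjusted p = 0.125).

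SLC9A3 (ENSG00000066230.12, chromosome 5, 470456 to 524449, minus strand) encodes NHE3, the main sodium-absorbing exchanger of the enterocyte brush border. Its counts were low, 7 to 13 reads per control library and up to 137 in the deepest PS80 library. Control libraries measured 1.93, 1.05, 1.67, 0.954 and 1.64 CPM, PS20 libraries 3.11, 1.49, 2.25, 3.02 and 2.52 CPM, and PS80 libraries 3.14, 3.31, 2.24, 2.16 and 2.04 CPM. All PS80 libraries lay above all control libraries, and PS20 replicate 2 lay among the controls. The log2 fold change was 0.88 ± 0.28 with PS20 (adjusted p = 0.0103) and 0.98 ± 0.26 with PS80 (adjusted p = 0.00497). The difference between the emulsifiers did not pass (0.11 ± 0.22, adjusted p = 0.747), with an interval of -0.35 to 0.56. The PS20 call was lost without control replicate 4, the lowest control (0.70, adjusted p = 0.055), and within replicates 1 and 2 (0.72, adjusted p = 0.269). The PS80 call was lost within replicates 3 to 5 (0.70, adjusted p = 0.0965).

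SLC9A3 shared 56.8% of its exonic bases with exons of other genes, 41.1% in PP7080, 14.6% in EXOC3 and 14.4% in SLC9A3-AS1. The reads were counted without strand, so SLC9A3 and its antisense neighbours EXOC3 and SLC9A3-AS1 cannot be told apart where they overlap. PP7080 lies on the same strand as SLC9A3, so counting by strand would not separate that part. PP7080 held 7 reads over all libraries, against 418 for SLC9A3. How reads in the shared bases were assigned, or whether they were left out of both genes, was not examined. These counts therefore do not show which gene the shared part was read from, and the level of SLC9A3 is uncertain. EXOC3, an exocyst subunit on the other strand, had a log2 fold change of -0.07 with PS20 (adjusted p = 0.402) and -0.25 with PS80 (adjusted p = 0.00348). SLC9A3-AS1 did not pass with either (0.18, adjusted p = 0.485, and 0.04, adjusted p = 0.894).

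Counts in the lists of related genes stand against the same background as the members, 48.2% of all genes with PS20, 33.2% with PS80 and 35.2% between the emulsifiers. Among 11 sodium-proton exchanger genes 7 were tested. With PS20, 4 rose and 1 fell, and with PS80, 2 rose and none fell. SLC9A8 (NHE8), an exchanger of the Golgi and the apical membrane, had the smallest p of the list. It measured 33.1 ± 3.32 CPM in control, 66.9 ± 4.35 with PS20 and 43.2 ± 3.09 with PS80, with log2 fold changes of 0.998 ± 0.07 (adjusted p = 9.46e-11) and 0.37 ± 0.08 (adjusted p = 0.00051).

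The scaffolds and regulators of NHE3 and CFTR changed in both directions. With PS20, 4 of 10 tested genes were higher (NHERF2, CHP1, PRKG2 and AHCYL1) and 3 lower (PDZK1, EZR and NHERF1). With PS80, 2 were higher and 1 was lower. PDZK1, a PDZ scaffold of brush border transporters, fell from 82.4 ± 8.21 CPM to 40.0 ± 3.78 with PS20 and to 67.2 ± 3.41 with PS80. Its log2 fold changes were -1.05 ± 0.08 (adjusted p = 4.77e-11) and -0.30 ± 0.07 (adjusted p = 0.00249). EZR (ezrin), which ties such scaffolds to actin, fell with PS20 (-0.49 ± 0.05) and did not pass with PS80 (adjusted p = 0.145). NHERF1 fell with PS20 (-0.31 ± 0.05) and did not pass with PS80 (adjusted p = 0.167). NHERF2 rose with both (0.44 ± 0.09 with PS20, adjusted p = 0.000168, and 0.55 ± 0.08 with PS80, adjusted p = 2.48e-05). PRKG2, a kinase that inhibits NHE3 and activates CFTR, rose with PS20 from 3.83 ± 0.625 to 7.54 ± 1.39 CPM (0.94 ± 0.18, adjusted p = 8.53e-05). It measured 3.88 ± 0.731 CPM with PS80, which did not pass against control (adjusted p = 0.847) and was lower than with PS20 (-0.89 ± 0.16, adjusted p = 0.00013).

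**Figure D2:**
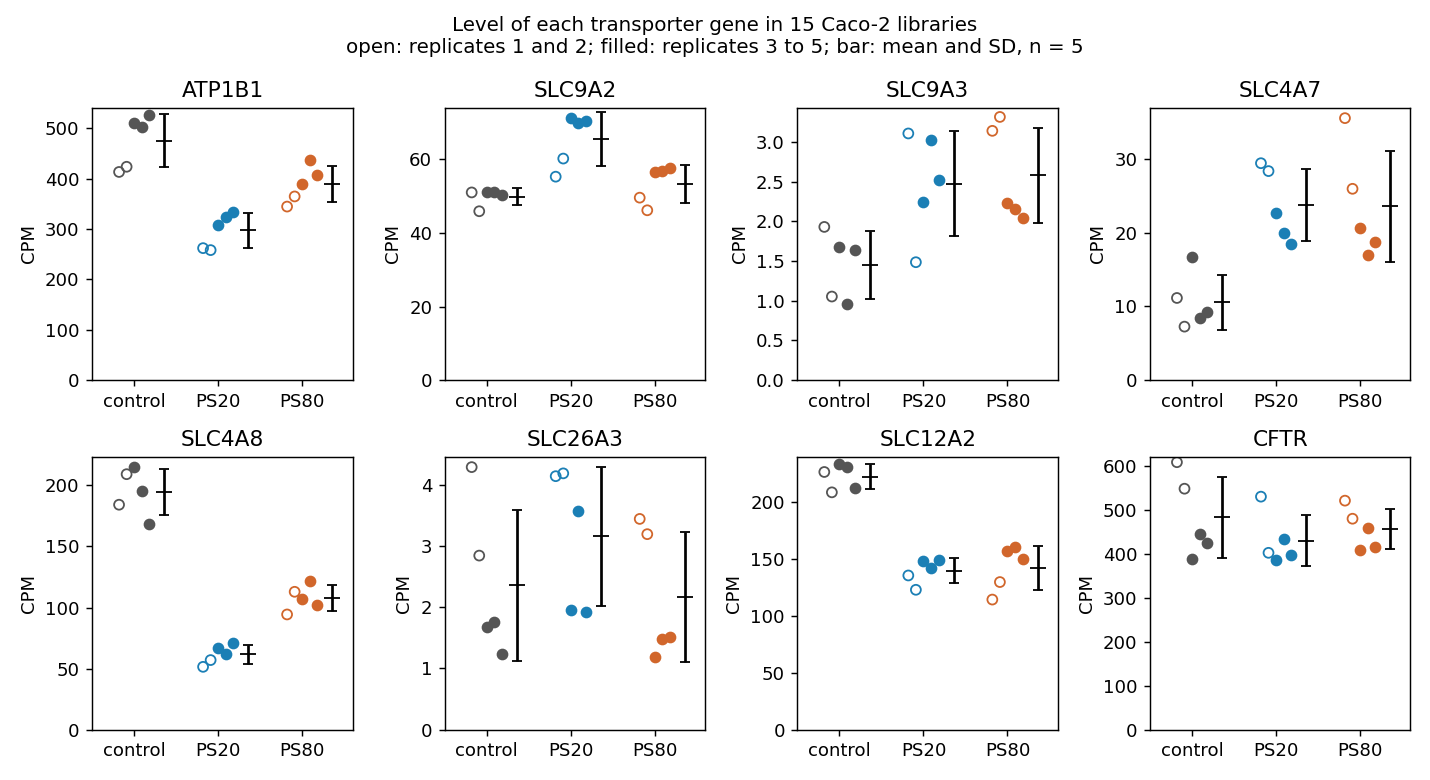
CPM (vertical axes, each from 0) of the 8 genes in every library of the 3 groups. Open points are replicates 1 and 2, filled points replicates 3 to 5, and bars show the mean and SD over 5 libraries. SLC4A8 separates all 3 groups, with means of 195 CPM in control, 61.6 with PS20 and 108 with PS80, while CFTR overlaps in all of them.

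SLC4A8 (ENSG00000050438.17, chromosome 12, 51391317 to 51515763, plus strand) encodes NDCBE, which carries sodium and bicarbonate into the cell in exchange for chloride. Control libraries measured 184, 209, 215, 196 and 169 CPM. PS20 libraries measured 51.5, 57.0, 66.8, 61.9 and 70.9 CPM, and PS80 libraries 94.3, 113, 107, 122 and 102 CPM. The 3 groups did not overlap: every PS20 library lay below every PS80 library, and every PS80 library lay below every control library. SLC4A8 was 3.14-fold lower with PS20 (log2 fold change -1.65 ± 0.09, adjusted p = 1.38e-12) and 1.81-fold lower with PS80 (-0.85 ± 0.08, adjusted p = 1.22e-07). It ranked 133 of 12769 genes by the size of its log2 fold change with PS20 and 484 with PS80. PS80 was higher than PS20 by 0.80 ± 0.08 on the log2 scale (adjusted p = 2.28e-07, interval 0.63 to 0.97). Both falls passed within replicates 1 and 2 (-1.87 with PS20, -0.92 with PS80) and within replicates 3 to 5 (-1.53 and -0.81), and with PS80 replicate 2 as the only PS80 library (-0.78, adjusted p = 4e-04). The gene shares 2.19% of its exonic bases with GALNT6 on the other strand, a glycosyltransferase that itself fell with PS20 (-0.87 ± 0.05, adjusted p = 2.62e-12) and with PS80 (-0.15 ± 0.05, adjusted p = 0.0261). The part of that overlap in the SLC4A8 counts was not tested.

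SLC4A7 (ENSG00000033867.17, chromosome 3, 27372721 to 27484420, minus strand) encodes NBCn1, which carries sodium and bicarbonate into the cell together and raises cell pH. Control libraries measured 11.2, 7.27, 16.7, 8.43 and 9.29 CPM. PS20 libraries measured 29.4, 28.4, 22.7, 19.9 and 18.5 CPM, and PS80 libraries 35.5, 26.0, 20.6, 17.0 and 18.7 CPM. Every exposed library lay above every control library, by little for control replicate 3, and the exposed groups overlapped each other. The rise was 2.38-fold with either emulsifier (log2 fold change 1.25 ± 0.25 with PS20, adjusted p = 0.00101, and 1.25 ± 0.25 with PS80, adjusted p = 0.0016). The difference between the emulsifiers did not pass (0.00 ± 0.22, adjusted p = 0.994). Its interval ran from -0.46 to 0.47. The exposed libraries of replicates 1 and 2 were higher than those of replicates 3 to 5, with means of 28.9 against 20.4 CPM with PS20 and 30.7 against 18.8 CPM with PS80, and the controls were not (9.21 against 11.5 CPM). The log2 fold change was therefore 1.71 and 1.78 within replicates 1 and 2, and 1.001 and 0.85 within replicates 3 to 5, all of which passed.

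These sodium bicarbonate carriers moved in opposite directions, and the ratio of their levels per kilobase of exon changed with them. SLC4A8 exceeded SLC4A7 by 6.91 to 15.5 times in the control libraries, with a mean ratio of 10.7 ± 3.33 (SD, n = 5). With PS20 the ratio was 0.938 to 2.06 (mean 1.47 ± 0.458), and with PS80 it was 1.43 to 3.84 (mean 2.66 ± 0.883). In the PS20 library with the lowest ratio, replicate 1, SLC4A7 was slightly above SLC4A8 per kilobase, while SLC4A8 was higher in CPM (51.5 against 29.4). The lengths cover all annotated exons of each gene, and the size of the ratio depends on them. The exposed ratios overlapped each other, and neither overlapped control.

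Of 10 SLC4 genes, 5 were tested, and all 5 passed with PS20, 3 higher and 2 lower, while 2 rose and 1 fell with PS80, against 48.2% and 33.2% of all genes. SLC4A2 (AE2), a basolateral chloride-bicarbonate exchanger and the member of the family with the highest control level per kilobase (29.5 CPM per kb), fell from 223 ± 14.8 to 182 ± 6.27 CPM with PS20 (-0.30 ± 0.06, adjusted p = 0.000128). It did not pass with PS80 (245 ± 19.0 CPM, adjusted p = 0.067). SLC4A3 (AE3), another anion exchanger, was low and rose with both, from 2.79 ± 0.527 CPM to 4.88 ± 1.07 with PS20 (0.76 ± 0.19, adjusted p = 0.00187) and 4.49 ± 0.616 with PS80 (0.63 ± 0.19, adjusted p = 0.0101).

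SLC26A3 (ENSG00000091138.13, chromosome 7, 107765467 to 107803225, minus strand) encodes DRA, the apical exchanger of the colon that takes up chloride for bicarbonate. It had 7 to 132 reads per library. Control libraries measured 4.29, 2.84, 1.67, 1.76 and 1.23 CPM, PS20 libraries 4.14, 4.19, 1.96, 3.58 and 1.92 CPM, and PS80 libraries 3.44, 3.19, 1.19, 1.48 and 1.51 CPM. The groups overlapped throughout, and in each group replicates 1 and 2 were the highest. No comparison passed: the log2 fold change was 0.42 ± 0.37 with PS20 (adjusted p = 0.362) and 0.02 ± 0.36 with PS80 (adjusted p = 0.977), and PS80 against PS20 gave -0.40 ± 0.33 (adjusted p = 0.37). The intervals ran from -0.35 to 1.18, from -0.73 to 0.77 and from -1.09 to 0.29, so the PS20 interval includes a doubling. Within replicates 3 to 5, SLC26A3 was lower with PS80 than with PS20 (-0.74, adjusted p = 0.0451). None of the 6 tested genes of the SLC26 family passed with PS20, and 1 was lower with PS80. It was SLC26A1, a sulfate exchanger (-0.40 ± 0.15, adjusted p = 0.041). SLC26A2, also a sulfate carrier, had the highest control level of the family per kilobase (65.5 CPM per kb), measured 668 ± 136 CPM and did not pass (adjusted p = 0.931 and 0.829). SLC26A2 was chosen after its values were seen.

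SLC12A2 (ENSG00000064651.14, chromosome 5, 128083766 to 128189677, plus strand) encodes NKCC1, the basolateral cotransporter that loads chloride for secretion. Control libraries measured 227, 209, 234, 231 and 213 CPM. PS20 libraries measured 136, 123, 149, 142 and 150 CPM, and PS80 libraries 114, 130, 157, 160 and 150 CPM. Every exposed library lay below every control library, and the exposed groups overlapped. The log2 fold change was -0.67 ± 0.08 with PS20 (adjusted p = 2.91e-07) and -0.65 ± 0.08 with PS80 (adjusted p = 1.7e-06). The emulsifiers did not differ by a margin that passed (0.02 ± 0.08, adjusted p = 0.861), and the interval of that difference was -0.14 to 0.18. The fall passed within replicates 1 and 2 (-0.75 with PS20, -0.83 with PS80) and within replicates 3 to 5 (-0.62 and -0.54).

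SLC12A2 was the only cation-chloride cotransporter of 7 tested that passed with PS80. With PS20, SLC12A4 (KCC1), which carries potassium and chloride out of the cell, fell as well (-0.49 ± 0.06, adjusted p = 5.91e-07). SLC12A4 measured 66.4 ± 4.32 CPM in control, 47.3 ± 2.31 with PS20 and 67.0 ± 2.67 with PS80. Of 7 tested genes of the WNK and SPAK kinase pathway, which phosphorylates and activates NKCC1, 3 rose and 1 fell with either emulsifier. STK39 (SPAK), the kinase that acts on NKCC1, rose from 3.88 ± 0.718 CPM to 7.94 ± 1.93 with PS20 (1.03 ± 0.21, adjusted p = 0.000214) and to 6.51 ± 1.99 with PS80 (0.75 ± 0.21, adjusted p = 0.00655). CAB39L, a scaffold protein that activates SPAK, fell from 99.7 ± 10.2 CPM to 30.2 ± 4.26 with PS20 (-1.71 ± 0.12, adjusted p = 3.14e-09) and to 42.9 ± 8.23 with PS80 (-1.22 ± 0.12, adjusted p = 6.39e-07). Its relative CAB39 measured 100 ± 8.82 CPM in control and did not pass with PS20 (adjusted p = 0.995) or PS80 (adjusted p = 0.495). CAB39 was named after its values were seen. WNK1 changed by less, with a log2 fold change of 0.13 with PS20 (adjusted p = 0.0186) and 0.14 with PS80 (adjusted p = 0.0217).

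CFTR (ENSG00000001626.18, chromosome 7, 117287120 to 117715971, plus strand) encodes the cyclic AMP-regulated chloride and bicarbonate channel of the apical membrane. Control libraries measured 609, 548, 389, 446 and 425 CPM. PS20 libraries measured 530, 402, 387, 433 and 398 CPM, and PS80 libraries 521, 480, 410, 458 and 415 CPM. The groups overlapped, and the widest gap lay within control, between replicates 1 and 2 (mean 579 CPM) and replicates 3 to 5 (mean 420 CPM). The log2 fold change was -0.17 ± 0.13 with PS20 (adjusted p = 0.286, interval -0.44 to 0.10) and -0.08 ± 0.12 with PS80 (adjusted p = 0.662, interval -0.35 to 0.19). Within replicates 1 and 2, CFTR was lower with PS20 (-0.31, adjusted p = 0.0423), and within replicates 3 to 5 it did not pass (-0.05, adjusted p = 0.432). PS80 against PS20 gave 0.09 ± 0.12 (adjusted p = 0.621).

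Other genes of the chloride channel list changed in both directions, in numbers near the background with PS80. Of 18 tested, CFTR included, 8 rose and 3 fell with PS20, and 5 rose and 1 fell with PS80, where 48.2% and 33.2% of all genes passed. Those that fell were CLCN4, CLCN5 and ANO6 with PS20 and CLCN7 with PS80. Between the emulsifiers 2 were higher and 7 lower with PS80, where 35.2% of all genes passed. LRRC8D, a subunit of the volume-regulated anion channel, rose with PS20 from 40.1 ± 2.30 to 57.4 ± 4.26 CPM (0.51 ± 0.07, adjusted p = 9.65e-07) and did not pass with PS80 (43.3 ± 2.23 CPM, adjusted p = 0.235). CLCN2, a plasma membrane chloride channel, rose with both, from 12.9 ± 1.91 CPM to 20.1 ± 2.21 with PS20 (0.63 ± 0.11, adjusted p = 4.8e-05) and 18.9 ± 2.19 with PS80 (0.56 ± 0.11, adjusted p = 0.000328). ANO1, the calcium-activated chloride channel, was low, at 1.5 ± 0.38 CPM in control, 3.45 ± 1.18 with PS20 and 3.58 ± 1.23 with PS80, with log2 fold changes of 1.12 ± 0.28 (adjusted p = 0.00161) and 1.26 ± 0.26 (adjusted p = 0.00066). BEST1, a bestrophin channel at 0.975 ± 0.567 CPM in control, rose to 3.42 ± 1.28 CPM with PS20 (adjusted p = 2.33e-05), did not pass against control with PS80 (1.27 ± 0.344 CPM, adjusted p = 0.342), and was lower with PS80 than with PS20 (-1.46 ± 0.27, adjusted p = 0.000135).

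Across the 8 genes, levels could be compared per kilobase of exonic length, taken over all annotated exons of a gene, and the order depends on these lengths. For SLC9A3, 56.8% of that length is shared with other genes. Its level per kilobase, its place in the order, its lack of overlap with SLC26A3 and its percentile are therefore uncertain. In control the order by mean was ATP1B1 (38.7 ± 4.28 CPM per kb, SD, n = 5), CFTR (28.7 ± 5.46), SLC12A2 (20.9 ± 1.06), SLC4A8 (10.9 ± 1.05), SLC9A2 (8.08 ± 0.366), SLC4A7 (1.10 ± 0.386), SLC26A3 (0.697 ± 0.364) and SLC9A3 (0.252 ± 0.0737). ATP1B1 stood at the 91.3 percentile of all genes tested and SLC9A3 at the 4.14 percentile. Neighbours in that order overlapped between libraries for ATP1B1 and CFTR and for SLC4A7 and SLC26A3, and the other neighbours did not overlap. With PS20 the order changed at the top and in the middle. CFTR (25.6 ± 3.48) and ATP1B1 (24.2 ± 2.86) overlapped, SLC9A2 (10.6 ± 1.18) lay above SLC4A8 (3.44 ± 0.431) in every library, and SLC4A8 overlapped SLC4A7 (2.47 ± 0.513). With PS80, SLC9A2 (8.64 ± 0.836) also lay above SLC4A8 (6.01 ± 0.586) in every library, and SLC4A7 (2.45 ± 0.778) lay below both. NHE2 transcript thus exceeded NHE3 transcript in every group, and SLC12A2 came after ATP1B1 and CFTR by mean, at 13.1 ± 1.02 with PS20 and 13.4 ± 1.84 with PS80.

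**Figure D3:**
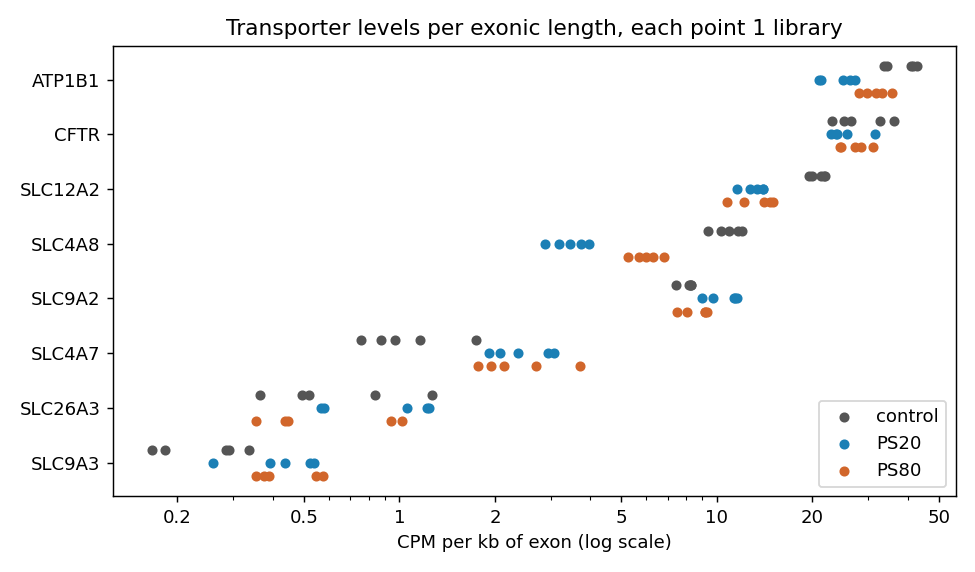
Levels of the 8 genes in CPM per kilobase of exon (horizontal log axis), with 1 point per library and 1 colour per group. SLC4A8 moves from 10.9 in control to 3.44 with PS20 and 6.01 with PS80, while SLC4A7 moves from 1.10 to 2.47 and 2.45, so that the 2 carriers approach each other.

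Channels and enzymes that work beside these transporters were read by list from the same fit. SCNN1A, the alpha subunit of the epithelial sodium channel and the 1 gene tested of 4 subunits, rose with PS20 from 74.5 ± 11.4 to 170 ± 18.1 CPM (log2 fold change 1.19 ± 0.12, adjusted p = 5.13e-07). It measured 69.9 ± 11.9 CPM with PS80, which did not pass against control (adjusted p = 0.653) and was lower than with PS20 by a log2 fold change of -1.26 ± 0.12 (adjusted p = 4.81e-07). SCNN1B and SCNN1G, the other subunits of the absorptive channel, had too few counts to test.

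Of 4 tested potassium channels, which recycle potassium and hold the voltage that drives secretion, 2 rose and 1 fell with PS20, and 1 rose and 2 fell with PS80. KCNK5, a basolateral two-pore channel, fell with both (-0.57 ± 0.07 and -0.34 ± 0.07). KCNE3, the subunit that keeps the KCNQ1 channel open in the colon, rose with PS20 (0.16 ± 0.06, adjusted p = 0.0333) and fell with PS80 (-0.39 ± 0.06, adjusted p = 3.47e-05). Its level was 79.1 ± 5.48 CPM in control, 88.5 ± 3.75 with PS20 and 60.8 ± 3.17 with PS80, and the difference between the emulsifiers passed (-0.55 ± 0.06, adjusted p = 1.83e-07).

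The active enzymes of the carbonic anhydrase family make bicarbonate and protons from carbon dioxide and water. Of 6 tested genes of that family, active or not, 2 rose and 1 fell with either emulsifier. CA11 and CA12 rose with both, while the gene that fell was CA2 with PS20 and CA8 with PS80. CA2, the cytosolic enzyme, fell from 14.7 ± 3.88 to 6.57 ± 1.12 CPM with PS20 (-1.20 ± 0.16, adjusted p = 7.87e-07) and did not pass with PS80 (12.9 ± 1.14 CPM, adjusted p = 0.293). The emulsifiers differed for it (0.999 ± 0.15, adjusted p = 1.46e-05). CA12, a membrane enzyme, rose from 1.14 ± 0.575 CPM to 3.78 ± 0.875 with PS20 and 5.48 ± 1.67 with PS80 (1.76 ± 0.29 and 2.32 ± 0.27). Of 6 tested aquaporins, 1 rose and 3 fell with PS20, and 2 rose and 3 fell with PS80. AQP3, the basolateral water and glycerol channel, fell from 148 ± 18.6 CPM to 62.9 ± 10.9 with PS20 and 80.1 ± 11.6 with PS80 (-1.23 ± 0.13 and -0.88 ± 0.12). AQP11, an intracellular aquaporin, fell with both as well (-0.85 ± 0.10 and -0.62 ± 0.10).

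Of 15 tested genes of proton pumps and monocarboxylate carriers, 5 rose and 5 fell with PS20, and 1 rose and 5 fell with PS80. Among subunits of the vacuolar proton pump, ATP6V0A1 fell with PS20 (-0.67 ± 0.06, adjusted p = 3.58e-09), did not pass with PS80 (adjusted p = 0.511) and was higher with PS80 than with PS20 (0.61 ± 0.06). ATP6V1B2 fell with both (-0.43 ± 0.05 and -0.28 ± 0.05). Other subunits of that pump rose with PS20 (ATP6V1F, ATP6V1G1, ATP6V0A2 and ATP6V0B). Between the emulsifiers 3 genes of the list were higher and 3 lower with PS80, the latter being ATP6V1D, ATP6V1G1 and ATP6V1H. SLC16A1 (MCT1), which carries lactate and butyrate with a proton, rose from 165 ± 14.4 CPM to 191 ± 8.04 with PS20 (0.22 ± 0.06, adjusted p = 0.00241) and 206 ± 4.66 with PS80 (0.32 ± 0.06, adjusted p = 8.32e-05).

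**Figure D4:**
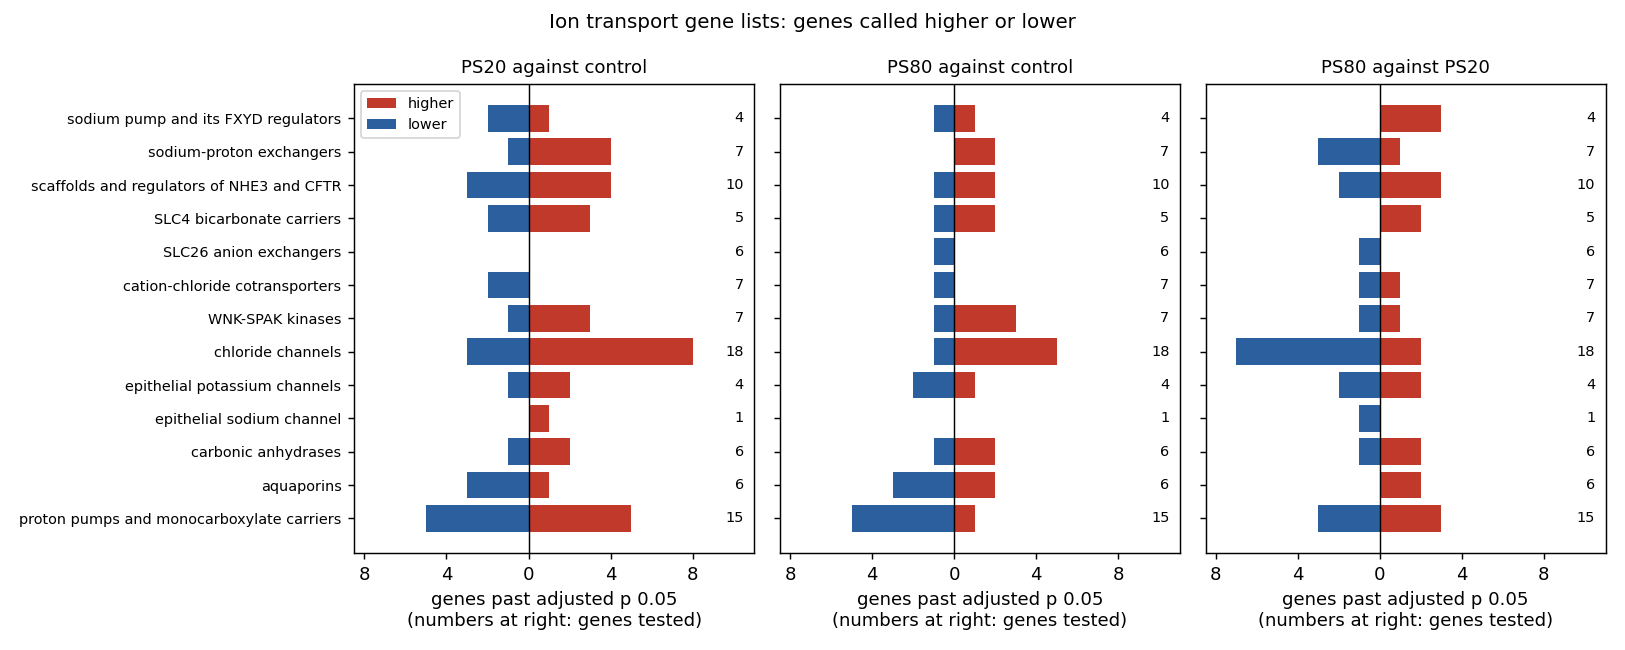
Genes past the adjusted p of 0.05 in each list of ion transport genes (horizontal axis, higher to the right and lower to the left), with the number of genes tested at the right of each row. The longest bars are chloride channels, with 8 of 18 higher with PS20 and 7 of 18 lower with PS80 than with PS20, and no SLC26 gene passed with PS20.

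The genes whose levels followed each member most closely over the 15 libraries were found by the root mean square difference of log2 CPM after centring, over 10289 genes of at least 5 CPM. ATP1B1 was followed most closely by CNN3, at a difference of 0.0673 where ATP1B1 itself varied by 0.312, and then by EMP2 (0.0864). For SLC4A8, which varied by 0.692, they were CTTNBP2 (0.159) and SPTLC3 (0.166). The log2 fold changes of CTTNBP2 were -1.69 with PS20 and -0.85 with PS80, against -1.65 and -0.85 for SLC4A8. The profiles compared include the group differences, so this likeness of fold changes follows from how the genes were chosen. For SLC12A2, which varied by 0.338, the nearest were TP53I3 (0.0928) and FOXJ3 (0.102), and for SLC9A2, which varied by 0.202, MTDH (0.0777) and EIF5 (0.0838). CFTR varied by 0.195 and was followed by TNIK (0.083) and HNMT (0.0843). The likeness was looser for the genes with fewer reads. SLC4A7 varied by 0.658 and was nearest to N4BP3 (0.273) and ADA (0.276), SLC9A3 varied by 0.483 and was nearest to SHANK3 (0.247) and TNFAIP8 (0.248), and SLC26A3 varied by 0.603 and was nearest to METTL7A (0.275) and AHSG (0.293).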

How the data were processed

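The labels' protocols name an RNeasy column and a TruSeq polyA kit for the 15 Caco-2 libraries, 5 per group. The authors deposited 1 table of raw read counts by gene for each library. FeatureCounts made them, per the file headers, as version 2.0.0 for 11 libraries and 2.0.3 for 4, on GENCODE release 42. Reads needed a mapping quality of 10, and neither strand nor pairing was set. The submitters' processing notes name cutadapt, STAR 2.7.9a, DESeq2 1.32.0 and build GRCh38. Counting without strand cannot tell apart genes that overlap on opposite strands, which bears on part of the exons of SLC9A3.

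Of 69215 genes, 61918 were paired with a symbol. Counts were analysed with edgeR 4.0.16 in R 4.3.3. Genes were kept by filterByExpr (minimum count 10, minimum total 15), which left 12769, and were scaled by trimmed mean of M-values factors (0.978 to 1.02). Group differences came from glmQLFTest with robust estimation on all 15 libraries, 1 term per group, at a threshold of 0.05 after Benjamini-Hochberg adjustment over all genes tested. The common biological coefficient of variation was 8.91%. Levels are CPM with these factors, ± is the SD of a level or the SE of a log2 fold change, and intervals are at the 95% level. Log2 CPM for likeness used a prior count of 2. The test was also run on simulated counts, drawn with the common coefficient of variation for every gene and no replicate sets. That run cannot show how the test behaves with the replicate sets seen here. Total counts of 4183096 to 42271053 per library gave members 7 to 19846 reads each, and precision was lowest for SLC9A3 and SLC26A3. No 2 libraries of a group agreed within sampling noise (chi-square per degree of freedom 1.69 or more).

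The members and all gene lists were chosen with earlier results of these data known. Named besides the members were up to 3 genes with the smallest p per list and comparison and the 2 nearest genes in likeness per member. Not every gene that this rule names is described, and some are not reported here. Libraries with the same replicate number were correlated in their deviations from the group means across genes. All 5 correlations exceeded 0.1 for PS80 and control (0.102 to 0.304), and by that rule alone the numbers were taken as pairs there. The correlations did not all exceed 0.1 for PS20 and control (-0.026 to 0.248) or PS80 and PS20 (0.074 to 0.29). Only 3 of 5 PS80 libraries correlated best with the control of their own number, against 4 of 5 PS20 libraries, so pairing is not shown. The part of the split between replicates 1 and 2 and replicates 3 to 5 in these correlations was not tested. Values given with the genes came from fits without a replicate term, also for PS80 against control. The pairs entered only the replicate block, which was fitted by replicate number over all 3 groups. Alternatives were a replicate block, DESeq2 1.42.0, relative log expression factors, library totals alone, no filter, only the groups compared, leaving out each library, replicates 1 and 2 alone and replicates 3 to 5 alone. An alternative with only the libraries counted by featureCounts 2.0.0 was added after seeing the data. Promoter windows came from RefSeq (GRCh38.p14).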

Additional observations from a re-analysis of the deposited data

Results flagged for a closer look

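The CPM of the 8 genes was checked for single libraries far from the rest in each of the 3 groups, 24 groups of 5 libraries in all, of which chance marks about 1 in 20. For SLC9A2, control replicate 2 measured 45.9 CPM, while the other controls lay between 50.4 and 51.1 CPM. Its gap to the nearest control was 0.865 of the range of the group, above the limit of 0.71. No library of the other groups passed that limit, and leaving it out did not change the SLC9A2 calls.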

How the results depend on the processing

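The count of members that passed moved between 5 and 8 with PS20, between 4 and 5 with PS80 and between 2 and 4 between the emulsifiers over all alternatives run. Leaving out 1 library at a time gave 5 to 6, 5 and 3 members. No fold change of a member that had passed reversed its sign. Values that lost or gained a call within replicates 1 and 2, within replicates 3 to 5, without control replicate 4 or with PS80 replicate 2 as the only PS80 library stand beside their genes in the report, and the cause was not tested. Over all genes, replicates 1 and 2 alone gave 3297 calls with PS20 (6150 with all replicates), 2213 with PS80 (4243) and 1612 between the emulsifiers (4501). With PS80 replicate 2 as the only PS80 library there were 2797 calls against control and 2375 against PS20, with its spread assumed to be like that of the other groups. These alternatives have fewer libraries.

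A replicate block gave 8 members with PS20, 5 with PS80 and 4 between the emulsifiers. It changed no member call for PS80 against control, where the numbers were taken as pairs. There ATP1B1 gave -0.28 with the block (adjusted p = 2.2e-06), against -0.29 without it (adjusted p = 0.0156). In the other comparisons the numbers were not taken as pairs. There SLC26A3 (0.51, adjusted p = 0.0494) and CFTR (-0.16, adjusted p = 0.00826) passed with PS20 in edgeR with the block. SLC26A3 also passed for PS80 against PS20 (-0.53, adjusted p = 0.0321). Calls over all genes rose with the block from 6150 to 6866 for PS20 and from 4501 to 5451 between the emulsifiers. Of 5 libraries, 4 correlated best with their own number for PS20 and control, 3 for PS80 and PS20, and also 3 for PS80 and control.

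Depth limits SLC9A3 and SLC26A3, with 7 reads in their shallowest library.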
